A study of Mus musculus with 10 samples.

Results

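The 42 genes described here encode the proteins that copy DNA in S phase: the origin recognition and licensing factors, the MCM helicase and its activators, the sliding clamp and its loader, the replicative polymerases, the enzymes that supply deoxynucleotides, and a few regulators of S phase entry and of chromatin assembly behind the fork. They were chosen by name, and all 42 were found among the 18381 genes of the deposited table, where a symbol was matched to its mouse gene through the GENCODE annotation. All 42 also passed the filter on low counts, so they are 42 of the 14504 genes tested. No measured value entered this choice of names, but the names were picked with earlier results of these data known. The counts and medians below are therefore descriptions of this list, set beside the same quantities over all genes tested.

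The data are RNA sequencing of first lower molars from wild type C57BL/6JOlaHsd mouse embryos at embryonic day 14, when the tooth germ is an epithelial bud turning into a cap over condensed mesenchyme. The teeth were grown in hanging drops for 6 hours. In the IGF1 group the medium held 750 ng/ml of IGF1 (insulin-like growth factor 1, a secreted growth factor) added in phosphate buffered saline with bovine serum albumin, and in the control group it held the same volume of that vehicle alone. Each embryo gave a tooth to each group, so the 5 IGF1 and 5 control teeth form 5 pairs, labelled embryos 1, 2, 3, 4 and 6, and each tooth made its own library. The embryos are the replicates, and p-values measure the spread between them. Whole teeth were sequenced, so a higher level of a gene in more cells and a higher level per cell cannot be told apart, and neither can more cells in S phase and more RNA of these genes in each such cell.

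DNA replication is prepared in G1, when the origin recognition complex together with Cdc6 and Cdt1 loads rings of Mcm2 to Mcm7 onto DNA. Cyclin E with its kinase, and the Dbf4-dependent kinase, then fire these origins: Cdc45 and the GINS complex join the ring to make an active helicase, and the polymerases follow it. Many of the genes involved are transcribed at the border of G1 and S by E2F factors, which the retinoblastoma proteins hold in check until cyclin and kinase activity releases them.

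Library totals ran from 2845773 to 8403151 counts in the control teeth and from 3456634 to 8763113 counts in the IGF1 teeth, with embryo 1 lowest in both groups, so values from embryo 1 carry the largest counting error. No member had fewer than 13 counts in any tooth. Levels are given as CPM, the count of a gene after each TMM-scaled library total is set to 1000000, and the values of single teeth always follow the order of embryos 1, 2, 3, 4 and 6. Markers of both tissues of the tooth germ were present in every library: 22 epithelial markers summed to 3626 to 4903 CPM in the control teeth and 3958 to 5176 CPM in the IGF1 teeth, and 17 mesenchymal markers to 11567 to 13686 and 10419 to 13442 CPM. Among them Krt5 was higher with IGF1 and Itgb4 lower, and 4 mesenchymal markers were lower (Vim, Pdgfra, Pdgfrb and Zeb2); markers past the threshold were named after their values were seen. Their part in the results was not tested.

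Whether IGF1 changed the replication genes was asked within pairs, with edgeR's quasi-likelihood test, the embryo as a block and Benjamini-Hochberg adjustment over all 14504 genes. At an adjusted p under 0.05, 25 of the 42 genes (59.5%) were higher with IGF1, where 6.72% of all genes tested were called higher. By edgeR none of the 42 was called lower, against 4.76% of all genes, and none was lower at an unadjusted p under 0.05 or by DESeq2 or limma-voom, which called 22 and 25 of the 42 higher. Over all 14504 genes DESeq2 called 787 higher and limma-voom 1016. The 25 were Cdc6 and Cdt1 of the licensing factors, Mcm2 to Mcm6 of the helicase ring, Cdc45, Pcna, Rfc5, Pola1, Pola2, Pole, all 4 genes of deoxynucleotide supply (Rrm1, Rrm2, Tyms and Tk1), Fen1, Rpa1, Ccne1, Ccne2, E2f1, Uhrf1, Chaf1a and Chaf1b. Their folds ran from 1.20 (Pola2) to 2.07 (Ccne2), and their adjusted p-values from 0.000279 (Rrm2) to 0.0498 (Cdt1). The other 17 did not pass the test by edgeR. Their log2 fold changes ran from -0.02 (Gins4) to 0.73 (Orc1), and their edgeR adjusted p-values from 0.0509 (Orc1) to 0.925 (Gins4).

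The median log2 fold change of the 42 genes was 0.39, and that of all genes tested was -0.0038. The fold change was above 0 for 41 of the 42, against 49.4% of all genes. In 31 of them (73.8%) the IGF1 tooth was above its control tooth in all 5 embryos, against 13% of all genes. A further 8 were higher in 4 embryos, Gins1 and Rfc3 in 3, and Gins4 in 1. The levels of the 5 IGF1 teeth lay wholly above those of the 5 control teeth for 16 genes (38.1%), against 4.21% of all genes, and 15 of these 16 were among the 25 called. Without the embryo block, which leaves the pairing out, the same test called 16 of the 42 genes, all of them among the 25, and 887 genes in all. Among the fits that left out 1 embryo, that without embryo 6 gave the smallest count of higher members, 17, and that without embryo 3 the largest, 28.

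**Figure D1:**
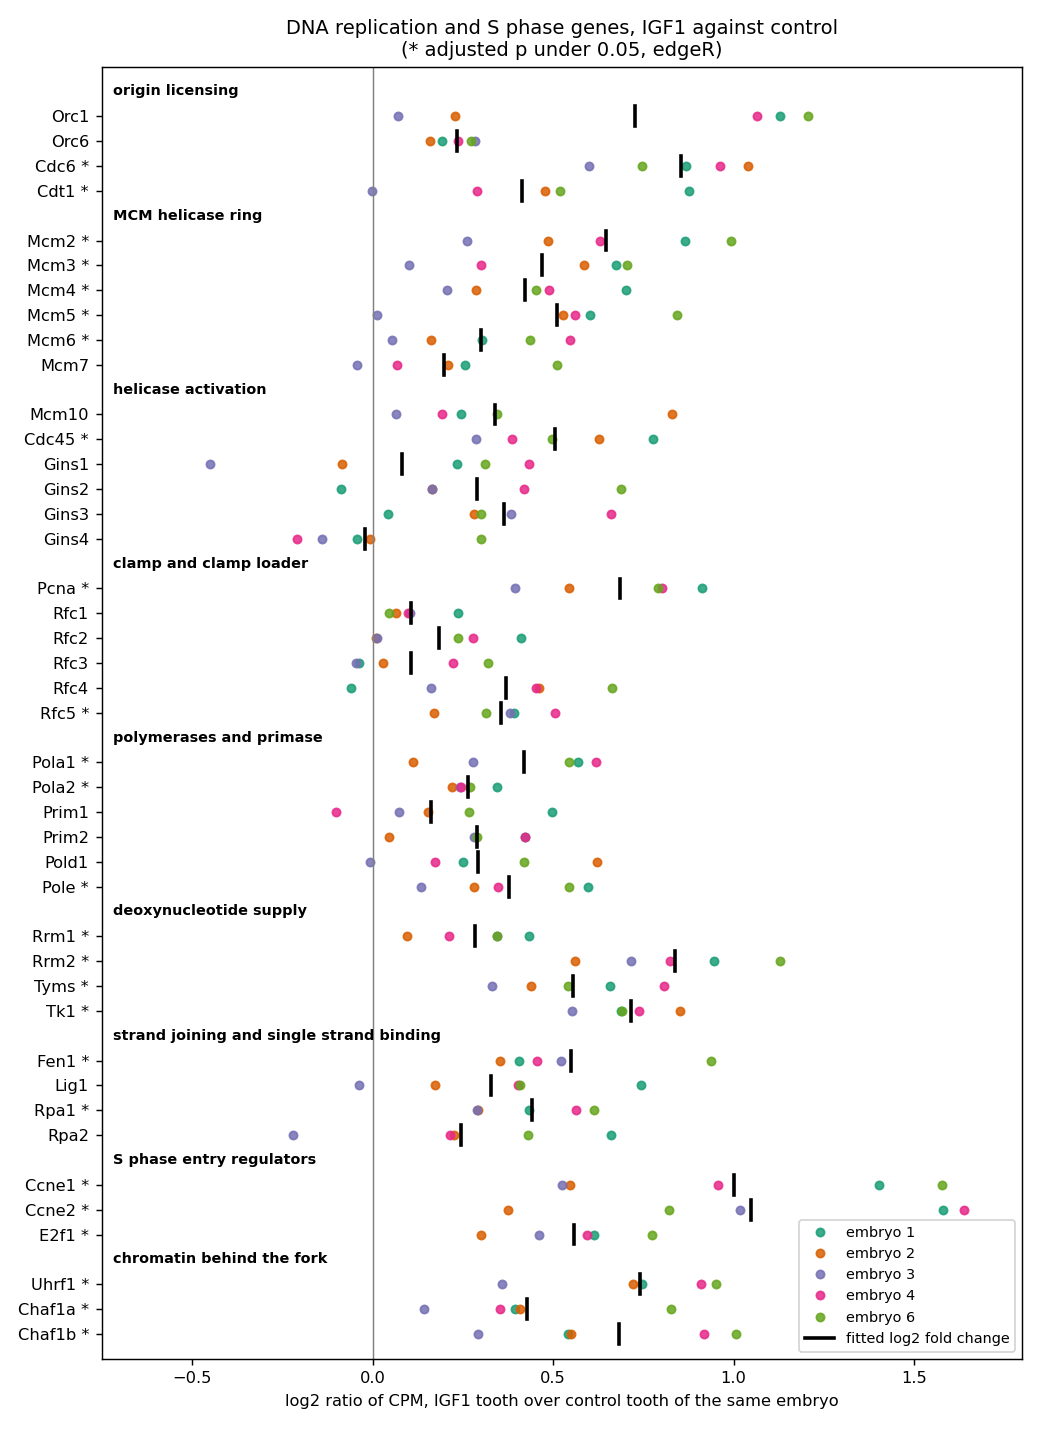
Log2 ratio of CPM (IGF1 tooth over control tooth of the same embryo) for each of the 42 genes, grouped by role; dots are the 5 embryos, the black bar is the fitted log2 fold change, and an asterisk marks an edgeR adjusted p under 0.05. Fitted values run from -0.02 (Gins4) to 1.05 (Ccne2), and nearly all dots lie to the right of 0, with those of embryo 3 often nearest to it.

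**Figure D2:**
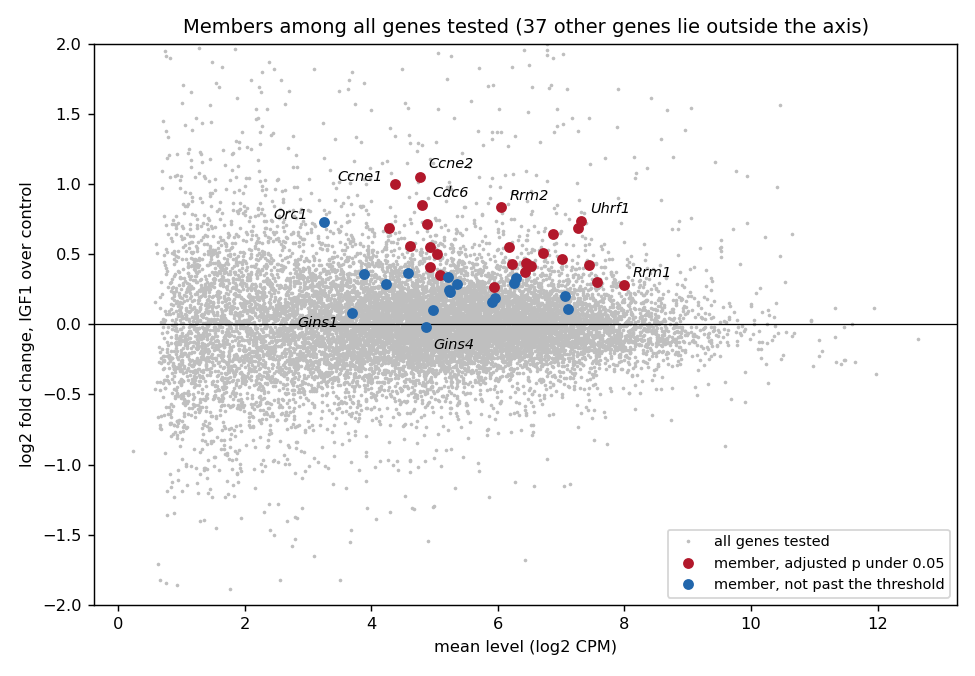
Log2 fold change against mean level (log2 CPM) for all 14504 genes tested (grey), with the 25 members past the threshold in red and the 17 others in blue; 37 other genes lie outside the axis. The members sit at middle to high levels and, Gins4 at -0.02 excepted, above 0, with the fold change of Ccne2 (1.05) the highest among them.

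The DNA around the RefSeq start sites of the members, called or not, is described first. RefSeq (GRCm38.p6) gave promoter windows, from 250 bases before to 50 bases after an annotated start, for 34 of the 42 genes (all but Mcm4, Gins1, Gins2, Gins4, Rfc2, Prim2, Pole and Ccne2). The E2F consensus was spelled out as 4 words, TTTCCCGC, TTTCGCGC, TTTGCCGC and TTTGGCGC, and searched on both strands. None of the words holds CCAAT, which was searched too. A match describes the letters only and is not a binding site, and a window without a match says nothing of the factor. A word was found in 13 of the 34 genes (38.2%), against 4.56% of the 10717 genes tested that have a window and 2.60% of all 27025 genes with a window. The 13 were Orc1, Cdc6, Cdt1, Mcm3, Mcm5, Mcm6, Mcm7, Gins3, Rfc3, Pola1, Pold1, Lig1 and Uhrf1. Their 19 words began between 185 bases before and 39 bases after the RefSeq start, and 9 genes had one before it. RefSeq and GENCODE place some starts differently: for 6 of the 9 (Cdc6, Gins3, Mcm7, Orc1, Rfc3 and Uhrf1) the word before the RefSeq start lies inside the gene as GENCODE spans it, and only for Mcm5, Mcm6 and Pola1 does it lie outside. By role, 4 of the 5 MCM ring genes with a window and 3 of the 4 licensing genes held a word, and none of the 4 genes of deoxynucleotide supply did. A word was also found in other replication genes (14 of 42 genes with a window, 33.3%) and in genes of G1/S control (7 of 17, 41.2%), in 1 of 19 genes of G2 and mitosis (5.26%) and in 6.73% of the genes called higher that are not members. CCAAT, the word of the NF-Y factor, was found in 61.8% of the 34 genes, in 43.0% of the genes tested, in 57.7% of the genes called higher that are not members, in 45.2% of the other replication genes and in 89.5% of the G2 and mitosis genes.

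The stretches that follow, read 5′ to 3′ on the strand of the gene, show 4 genes with words before a RefSeq start and, for contrast, 2 genes with large changes and no word. Words are in capitals, and bases that GENCODE places in an exon were left out. They come from chr11:98907982-98908150 (Cdc6, plus strand), chr8:75109259-75109508 (Mcm5, plus), chr1:128359706-128359955 (Mcm6, minus), chrX:93632156-93632405 (Pola1, minus), chr7:38107535-38107740 (Ccne1, minus) and chr12:24708004-24708240 (Rrm2, plus).
Cdc6: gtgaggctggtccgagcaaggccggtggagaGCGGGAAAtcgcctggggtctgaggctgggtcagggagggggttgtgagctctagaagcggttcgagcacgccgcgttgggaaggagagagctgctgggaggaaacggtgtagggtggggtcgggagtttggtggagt
Mcm5: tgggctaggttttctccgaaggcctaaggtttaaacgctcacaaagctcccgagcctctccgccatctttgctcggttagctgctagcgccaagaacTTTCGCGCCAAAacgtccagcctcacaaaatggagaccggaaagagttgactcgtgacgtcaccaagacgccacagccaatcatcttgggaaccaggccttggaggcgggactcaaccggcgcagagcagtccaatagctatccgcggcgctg
Mcm6: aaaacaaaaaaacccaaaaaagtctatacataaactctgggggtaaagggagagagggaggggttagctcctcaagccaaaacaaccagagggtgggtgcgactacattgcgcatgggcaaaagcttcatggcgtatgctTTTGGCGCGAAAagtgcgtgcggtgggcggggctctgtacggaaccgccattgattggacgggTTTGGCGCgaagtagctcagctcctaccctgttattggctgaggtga
Pola1: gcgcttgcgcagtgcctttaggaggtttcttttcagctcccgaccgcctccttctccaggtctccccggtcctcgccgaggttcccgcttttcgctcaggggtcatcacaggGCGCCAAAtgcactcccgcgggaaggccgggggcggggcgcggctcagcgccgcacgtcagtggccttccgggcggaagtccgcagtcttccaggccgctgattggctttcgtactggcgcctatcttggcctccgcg
Ccne1: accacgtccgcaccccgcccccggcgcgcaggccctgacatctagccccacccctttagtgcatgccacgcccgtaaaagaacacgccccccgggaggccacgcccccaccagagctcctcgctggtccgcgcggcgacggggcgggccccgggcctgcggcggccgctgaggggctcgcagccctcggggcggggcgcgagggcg
Rrm2: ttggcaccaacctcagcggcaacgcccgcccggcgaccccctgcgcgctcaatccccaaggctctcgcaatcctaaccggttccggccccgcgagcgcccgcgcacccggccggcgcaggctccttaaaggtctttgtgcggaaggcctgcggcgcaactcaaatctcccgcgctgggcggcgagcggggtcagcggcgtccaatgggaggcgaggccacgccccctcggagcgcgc
The word of Cdc6 begins 138 bases before the RefSeq start, but 212 bases inside the gene as GENCODE spans it, and the whole stretch of Cdc6 lies within that span, outside its exons. In Mcm5 a pair of words on opposite strands overlaps to give TTTCGCGCCAAA, beginning 153 bases before the start. Mcm6 holds such a pair as TTTGGCGCGAAA, 110 bases before the start, and a further word 47 bases before it. The word of Pola1 begins 138 bases before the start. The stretch of Ccne1 ends 44 bases before its start and that of Rrm2 13 bases before.

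Of genes with and without a word, both kinds were called: 7 of the 13 genes with a word were called higher with IGF1 (median log2 fold change 0.41), and so were 15 of the 21 genes whose window holds none (median 0.44). Among the latter were Ccne1 and Rrm2, whose stretches are printed above, and Pcna. The difference between these shares was not tested.

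**Figure D3:**
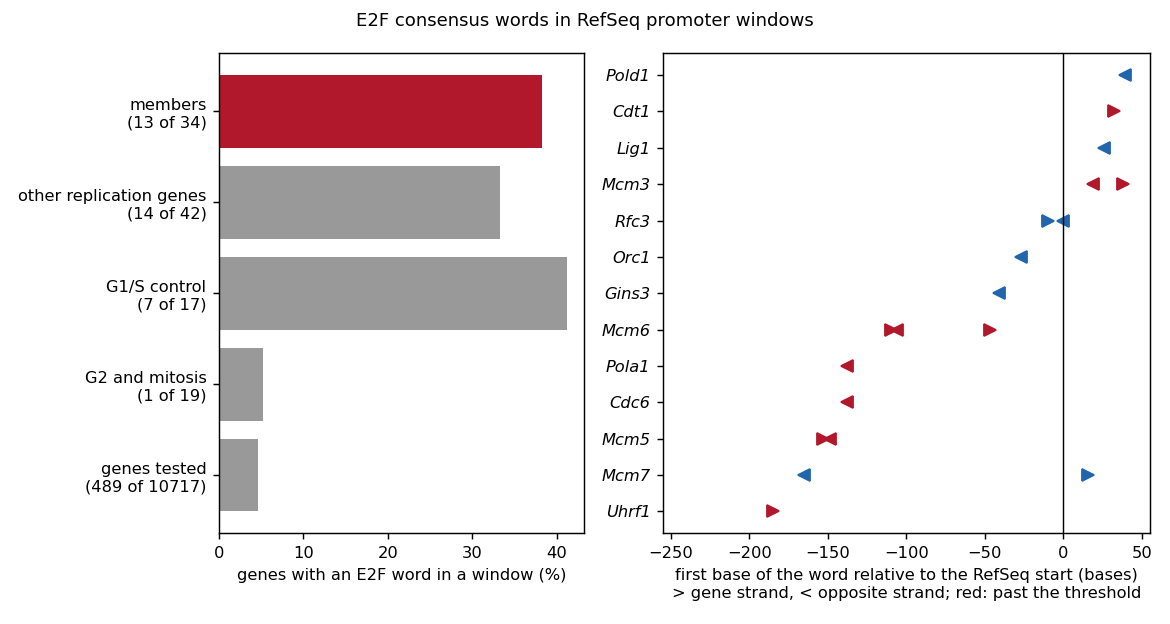
Left, percent of genes with an E2F word in a RefSeq window, for the members, for 3 other gene lists and for all genes tested; right, place of the first base of each word relative to the RefSeq start (bases) in the 13 members that hold one, with arrows for the strand and red for members past the threshold. The members (38.2%), other replication genes (33.3%) and G1/S control genes (41.2%) lie above G2 and mitosis genes (5.26%) and all genes tested (4.56%).

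The regulators of S phase entry had the largest median change of the role groups. All 3 were called higher, with a median log2 fold change of 1.00. Ccne1 and Ccne2 encode the E cyclins, which activate Cdk2 at the start of S phase. Ccne2 (ENSMUSG00000028212, chr4:11191351-11204779, plus strand of GRCm38) stood at 10.6, 24.5, 19.3, 10.5 and 22.4 CPM in the control teeth and 32.8, 32, 39.5, 33.7 and 40.0 CPM in the IGF1 teeth. The control teeth of embryos 1 and 4 were far below the other 3, while the IGF1 teeth lay close together and all above the control teeth. Ccne2 was 2.07-fold higher with IGF1 (log2 fold change 1.05 ± 0.17 SE, edgeR adjusted p = 0.00313). Exons of Ints8 on the other strand cover 17.4% of its exon bases, and Ints8 had a log2 fold change of -0.06.

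Ccne1 (ENSMUSG00000002068, chr7:38097984-38107534, minus strand) measured 11.7, 13.6, 14.1, 14.9 and 11.8 CPM in the control teeth and 31.7, 20.1, 20.4, 29.4 and 36.3 CPM in the IGF1 teeth. Here the control teeth were close together, and the IGF1 teeth of embryos 2 and 3 rose least, without meeting the control range. Its fold was 2.0 (log2 fold change 1.00 ± 0.17 SE, edgeR adjusted p = 0.00349). E2f1 (ENSMUSG00000027490, chr2:154559407-154569892, minus strand), the activating E2F factor that is itself an E2F target, was at 23.4, 20.2, 15.7, 19 and 20.1 CPM in the control teeth and 36, 25, 21.8, 28.9 and 34.8 CPM in the IGF1 teeth. Every IGF1 tooth was above its own control tooth, but the groups overlapped at the control tooth of embryo 1. E2f1 was 1.47-fold higher (log2 fold change 0.56 ± 0.10 SE, edgeR adjusted p = 0.00646).

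Of the 4 licensing genes, Cdc6 and Cdt1 were called higher and Orc1 and Orc6 were not (median log2 fold change 0.57). Cdc6, an ATPase that helps to load the MCM ring onto DNA, lies at chr11:98907801-98923940 (plus strand, ENSMUSG00000017499). Its levels were 16.5, 15.9, 19.1, 17.6 and 27.9 CPM in the control teeth and 30.5, 33.3, 29.3, 34.7 and 47.1 CPM in the IGF1 teeth. The control tooth of embryo 6 was well above the other control teeth, yet still below the lowest IGF1 tooth, so the groups did not overlap. Cdc6 was 1.81-fold higher (log2 fold change 0.85 ± 0.10 SE, edgeR adjusted p = 0.000520).

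Cdt1, which brings the ring to the origin, averaged 25.5 ± 3.80 CPM in the control teeth and 34.5 ± 4.79 CPM in the IGF1 teeth (SD, n = 5 each). It had the largest adjusted p among the genes called (fold 1.33, log2 fold change 0.41 ± 0.12 SE, edgeR adjusted p = 0.0498), with no difference in embryo 3 (29.8 against 29.7 CPM), and 11 of the 15 alternative analyses did not call it, with adjusted p up to 0.144 when an embryo was left out. Orc1, the large subunit of the origin recognition complex, had the lowest level per length of all members, 1.94 CPM per kb of exon in the control teeth. It averaged 6.75 ± 2.07 CPM in the control teeth and 11.4 ± 2.08 CPM with IGF1 (log2 fold change 0.73 ± 0.21 SE, edgeR adjusted p = 0.0509), with log2 ratios from 0.07 in embryo 3 to 1.21 in embryo 6. Over the 15 alternative analyses its log2 fold change ran from 0.58 (without embryo 6) to 1.20 (without embryos 2 and 3, which hold its lowest ratios), with adjusted p from 0.00545 to 0.184. Orc6, the licensing gene with the highest level per length, was at 33, 38.1, 35.6, 32.8 and 33.5 CPM in the control teeth and 37.7, 42.7, 43.4, 38.7 and 40.5 CPM in the IGF1 teeth. It was above its control in each pair by a small amount, and missed the threshold (log2 fold change 0.23 ± 0.08 SE, edgeR adjusted p = 0.0824).

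The MCM genes encode the 6 subunits of a single ring, so their levels can be read against each other per length. All 6 had a positive fold change and all but Mcm7 were called (median log2 fold change 0.45). Mcm2 (ENSMUSG00000002870, chr6:88883474-88898780, minus strand) stood at 92.4, 80.9, 96.2, 93 and 89.5 CPM in the control teeth and 169, 114, 115, 144 and 179 CPM in the IGF1 teeth. The control teeth lay within a narrow range and the IGF1 teeth of embryos 2 and 3 were the lowest of their group, but all 5 were above the control teeth. Mcm2 had the largest change of the ring, 1.56-fold (log2 fold change 0.65 ± 0.10 SE, edgeR adjusted p = 0.00263).

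Mcm5 (ENSMUSG00000005410, chr8:75109569-75128439, plus strand) was at 89.7, 67.4, 89.3, 90.8 and 90.9 CPM in the control teeth and 136, 97.4, 90.1, 134 and 163 CPM in the IGF1 teeth. The IGF1 tooth of embryo 3 was level with its control, and the groups overlapped there. The fold was 1.42 (log2 fold change 0.51 ± 0.11 SE, edgeR adjusted p = 0.0109). Without the embryo block it was not called (adjusted p = 0.0566). Mcm3 (ENSMUSG00000041859, chr1:20802968-20820312, minus strand) measured 94.1, 91.5, 109, 124 and 116 CPM in the control teeth and 151, 138, 117, 152 and 189 CPM in the IGF1 teeth. Again embryo 3 moved least, and its IGF1 tooth lay inside the control range (fold 1.38, log2 fold change 0.47 ± 0.09 SE, edgeR adjusted p = 0.00961).

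Mcm4 (ENSMUSG00000022673, chr16:15623897-15637400, minus strand), with the highest level of the ring per kb of exon union, was at 124, 147, 146, 144 and 177 CPM in the control teeth and 202, 179, 168, 203 and 242 CPM in the IGF1 teeth. The groups overlapped through the control tooth of embryo 6, and within pairs every IGF1 tooth was higher (fold 1.34, log2 fold change 0.42 ± 0.08 SE, edgeR adjusted p = 0.00640). Mcm6 was 1.23-fold higher (log2 fold change 0.30 ± 0.08 SE, edgeR adjusted p = 0.0353), and 5 of the 15 alternative analyses did not call it, among them those without embryo 1, 4 or 6 (adjusted p up to 0.144). Mcm7 did not pass the test (log2 fold change 0.20 ± 0.08 SE, edgeR adjusted p = 0.158). A processed pseudogene, Gm5487, matches 97.7% of 2157 aligned bases of Mcm7, but held 24 counts over all libraries against 8761 for Mcm7.

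Summed over the ring, the level was 168 ± 12.7 CPM per kb of exon in the control teeth and 225 ± 39.2 CPM per kb in the IGF1 teeth (SD, n = 5 each). The make-up of that sum moved a little: the share of Mcm2 went from 7.75% ± 0.545 to 9.20% ± 0.737, and that of Mcm7 from 16.6% ± 1.27 to 14.4% ± 0.504. Dividing by the length of the principal transcript in place of the exon union moved the shares (Mcm2 11.8% and 14.0%, Mcm7 18.2% and 15.8%) but not these directions. The ranking of levels did change: with that length Mcm6, not Mcm4, was the highest of the ring in every tooth. Mcm6 averaged 58.2 CPM per kb in the control teeth and 72.3 in the IGF1 teeth, against 41.1 and 55.4 for Mcm4. Within every pair the share of Mcm2 was higher and that of Mcm7 lower in the IGF1 tooth, with either length. These shares were not tested.

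The genes of helicase activation had the fewest calls. Only Cdc45 of the 6 was called, and the median log2 fold change was 0.31. Cdc45 (ENSMUSG00000000028, chr16:18780447-18811987, minus strand), which joins the ring in limiting amounts, was at 21.3, 23.5, 27.4, 29.9 and 31.2 CPM in the control teeth and 36.9, 36.6, 33.5, 39.2 and 44.3 CPM in the IGF1 teeth. Embryo 6 was highest in both groups, and no IGF1 tooth was as low as any control tooth (fold 1.42, log2 fold change 0.51 ± 0.10 SE, edgeR adjusted p = 0.00727). Gins4, the member of this group with the highest level per length, was at 26.1, 27.5, 27.9, 36.3 and 26.4 CPM in the control teeth and 25.3, 27.3, 25.2, 31.3 and 32.5 CPM in the IGF1 teeth. It was the only member with a fold change below 0, and its groups overlapped almost wholly (log2 fold change -0.02 ± 0.10 SE, edgeR adjusted p = 0.925).

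Of the other GINS subunits, none passed the test. Gins1 had log2 ratios below 0 in embryos 2 and 3 and above 0 in the other 3 (log2 fold change 0.08 ± 0.16 SE, edgeR adjusted p = 0.788). Gins2 had a log2 fold change of 0.29 and Gins3 of 0.36. Exons of Gse1 on the other strand cover 67.3% of the exon bases of Gins2, and whether the counting used strand is not given in the sources used here. Mcm10, an initiation factor that is not part of the ring, was higher in all 5 pairs without passing the threshold (log2 fold change 0.34 ± 0.11 SE, edgeR adjusted p = 0.0797).

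Pcna, the sliding clamp that holds the polymerases on DNA, had the highest level per length of all 42 genes (48.6 CPM per kb of exon in the control teeth). The gene (ENSMUSG00000027342, chr2:132249162-132253314, minus strand) was at 111, 114, 116, 105 and 138 CPM in the control teeth and 209, 166, 153, 183 and 239 CPM in the IGF1 teeth. The lowest IGF1 tooth, that of embryo 3, lay above the highest control tooth, that of embryo 6. Pcna was 1.61-fold higher (log2 fold change 0.69 ± 0.08 SE, edgeR adjusted p = 0.000606). A processed copy, Pcna-ps2, is 99.2% identical over 781 bases, so some reads may have been split between them, but it held 65 counts over all libraries against 10152 for Pcna. Processed pseudogenes at 95% identity or more also exist for Cdc6, Rfc5, Rrm2, Tyms and Uhrf1 and are not analysed here.

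Of the clamp loader, a complex of Rfc1 to Rfc5, 1 subunit passed the test by edgeR. Rfc5 was 1.28-fold higher (log2 fold change 0.36 ± 0.09 SE, edgeR adjusted p = 0.0244), but was not called by the DESeq2 Wald test (adjusted p = 0.0783), without the embryo block (adjusted p = 0.103) or without embryo 1, 4 or 6 (adjusted p up to 0.0969). By edgeR the other 4 subunits did not pass the test. Their log2 fold changes were 0.11 for Rfc1, 0.19 for Rfc2, 0.11 for Rfc3 and 0.37 for Rfc4. Rfc4 was called higher by limma-voom (log2 fold change 0.39, limma-voom adjusted p = 0.0491). Genes on the opposite strand share 12.7% of the exon bases of Rfc4 (Eif4a2, 30341 counts over all libraries against 1602), 15.1% of those of Rfc2 (Lat2, 214 against 4025) and 10.7% of those of Rfc5 (Wsb2, 3414 against 2201). Exons of Orc1, Orc6, Mcm7, Cdc45, Pole, Tk1 and Lig1 are also overlapped from the opposite strand, by 10.8% of exon bases in Orc1 and less in the others. The standard error of Rfc1 was 0.06, the smallest among these 5 genes.

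Of the 6 polymerase and primase genes, Pola1, Pola2 and Pole were called. Pola1 (ENSMUSG00000006678, chrX:93304767-93632155, minus strand), the catalytic subunit of DNA polymerase alpha, was at 63.9, 95.8, 82.4, 63.3 and 87.2 CPM in the control teeth and 95, 104, 100.1, 97.4 and 127 CPM in the IGF1 teeth. The control teeth spread widely, from embryos 1 and 4 at the low end to embryo 2 at the high end, and overlapped the IGF1 teeth by the control tooth of embryo 2 alone. The IGF1 tooth of embryo 6 stood apart from its group. The fold was 1.34 (log2 fold change 0.42 ± 0.09 SE, edgeR adjusted p = 0.0122). It was not called without embryo 4 or 6 (adjusted p = 0.0568 and 0.0531) or without the embryo block (adjusted p = 0.0775).

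Pole (ENSMUSG00000007080, chr5:110286306-110337474, plus strand), the catalytic subunit of polymerase epsilon, measured 67, 66.9, 71.1, 75 and 88 CPM in the control teeth and 102, 81.4, 78.2, 95.6 and 128 CPM in the IGF1 teeth. The control tooth of embryo 6 lay within the IGF1 range, and each pair went up (fold 1.30, log2 fold change 0.38 ± 0.08 SE, edgeR adjusted p = 0.0147). It was not called without embryo 1 or 6 (adjusted p = 0.0575 and 0.0660) or without the embryo block (adjusted p = 0.107). Pola2, the accessory subunit of polymerase alpha, had the smallest fold among the genes called and very little spread: 55.5 ± 1.98 CPM in the control teeth and 66.8 ± 3.02 CPM with IGF1 (SD, n = 5 each), without overlap (log2 fold change 0.26 ± 0.07 SE, edgeR adjusted p = 0.0326). It was not called in 8 of the 15 alternative analyses, all 5 that leave out an embryo and the DESeq2 Wald test among them (adjusted p up to 0.105).

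The primase genes did not pass the test. Prim1 had the highest level per kb of exon in this group in the control teeth, at 14.5 against 14.2 CPM per kb for Pold1. In the IGF1 teeth Pold1 was higher, at 17.2 against 16.2 CPM per kb. This switch is seen only with the exon union. Per kb of the principal transcript Prim1 was above Pold1 in both groups. There the levels were 35.4 against 19.9 CPM per kb in the control teeth and 39.6 against 24.2 in the IGF1 teeth. Prim1 was at 36.8, 57.9, 61.7, 62.8 and 60.9 CPM in the control teeth and 52.1, 64.4, 65, 58.6 and 73.4 CPM in the IGF1 teeth. The control tooth of embryo 1 was far below the others, and in embryo 4 the IGF1 tooth was below its control (log2 fold change 0.16 ± 0.09 SE, edgeR adjusted p = 0.285). Prim2 was higher in every pair and its groups did not overlap, with an adjusted p just above the threshold (log2 fold change 0.29 ± 0.09 SE, edgeR adjusted p = 0.0553). Pold1, the catalytic subunit of polymerase delta, was higher in 4 of 5 embryos (log2 fold change 0.29 ± 0.09 SE, edgeR adjusted p = 0.0693).

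Deoxynucleotide supply was called throughout: Rrm1, Rrm2, Tyms and Tk1 were all higher in all 5 embryos with no overlap of the groups, and the median log2 fold change was 0.63. Rrm2 (ENSMUSG00000020649, chr12:24708241-24714146, plus strand) encodes the small subunit of ribonucleotide reductase, which is made in S phase and limits the enzyme. It stood at 39.5, 47.2, 48.9, 44.3 and 52.7 CPM in the control teeth and 76.6, 69.9, 80.7, 78.8 and 116 CPM in the IGF1 teeth. The IGF1 tooth of embryo 6 was far above the other 4, and these in turn were well above every control tooth. Rrm2 was 1.79-fold higher and had the smallest adjusted p of the 42 genes (log2 fold change 0.84 ± 0.09 SE, edgeR adjusted p = 0.000279).

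Rrm1 (ENSMUSG00000030978, chr7:102441695-102469771, plus strand), the large subunit, had the highest level per kb of exon in this group in the control teeth. In the IGF1 teeth Rrm2 was higher, at 30.4 against 25.3 CPM per kb of exon. That order depends on the length used. Per kb of the principal transcript Rrm1 was above Rrm2 in both groups. The levels were 57.3 against 21.2 CPM per kb in the control teeth and 69.7 against 38.5 in the IGF1 teeth. Rrm1 was at 196, 249, 227, 236 and 236 CPM in the control teeth and 265, 266, 289, 274 and 299.7 CPM in the IGF1 teeth. The lowest IGF1 tooth exceeded the highest control tooth, by less than for Rrm2 (fold 1.22, log2 fold change 0.28 ± 0.07 SE, edgeR adjusted p = 0.0224). It was not called without embryo 1, 4 or 6 (adjusted p up to 0.0903) or without the embryo block (adjusted p = 0.0572). Tk1 (ENSMUSG00000025574, chr11:117815526-117826092, minus strand), the thymidine salvage kinase, measured 22.3, 17.1, 23.6, 22 and 25 CPM in the control teeth and 36.3, 31.3, 34.9, 37 and 40.7 CPM in the IGF1 teeth. Embryo 2 was lowest in both groups and the log2 ratios of the pairs ran from 0.55 to 0.85 (fold 1.64, log2 fold change 0.71 ± 0.09 SE, edgeR adjusted p = 0.000737).

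Tyms (ENSMUSG00000025747, chr5:30058202-30073617, minus strand), thymidylate synthase, was at 50.2, 57.1, 58.2, 53.3 and 71.3 CPM in the control teeth and 79.5, 77.6, 73.3, 93.7 and 104 CPM in the IGF1 teeth. The control and IGF1 ranges came close only at the control tooth of embryo 6 and the IGF1 tooth of embryo 3 (fold 1.47, log2 fold change 0.55 ± 0.08 SE, edgeR adjusted p = 0.00217). Stretches of 237 to 361 bases of its longest transcript match genes other than its pseudogene at 95% identity or more, so part of its reads may be shared. Of these genes, 7 had counts, from 69 (Cd200r3) to 14566 (Olfr1247) over all libraries, and Olfr1247, Map3k2 (8582) and Wdr59 (4983) had more than the 4838 of Tyms.

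In the group that protects and joins new strands, Fen1 and Rpa1 were called and Lig1 and Rpa2 were not (median log2 fold change 0.38). Rpa1 (ENSMUSG00000000751, chr11:75298166-75348324, minus strand), the large subunit of the single strand binding protein, was at 74.5, 67.4, 69.9, 76.5 and 76.2 CPM in the control teeth and 101, 82.6, 85.5, 113 and 117 CPM in the IGF1 teeth. Its control teeth lay within a narrow range and below all IGF1 teeth (fold 1.36, log2 fold change 0.44 ± 0.08 SE, edgeR adjusted p = 0.00441). Rpa2, the next subunit, was below its control in embryo 3 and above it in the other 4 (log2 fold change 0.24 ± 0.12 SE, edgeR adjusted p = 0.213).

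Fen1 (ENSMUSG00000024742, chr19:10199132-10204169, minus strand), which cuts the flaps of Okazaki fragments, measured 29.2, 20.7, 21.7, 27.2 and 23.2 CPM in the control teeth and 38.9, 26.6, 31.4, 37.5 and 44.8 CPM in the IGF1 teeth. The IGF1 tooth of embryo 2 fell within the control range, and each pair went up (fold 1.46, log2 fold change 0.55 ± 0.11 SE, edgeR adjusted p = 0.00767). An antisense gene, Gm10143, covers 78.8% of the exon bases of Fen1 and is not analysed here. Lig1, the ligase that seals the fragments and the gene of this group with the highest level per length, was at 59.1, 62.1, 70.2, 71.3 and 76.9 CPM in the control teeth and 99.3, 70.1, 68.4, 94.6 and 102 CPM in the IGF1 teeth. The IGF1 tooth was above its control in 4 pairs and slightly below in embryo 3 (log2 fold change 0.33 ± 0.10 SE, edgeR adjusted p = 0.0629).

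All 3 genes of chromatin behind the fork were called (median log2 fold change 0.68). Uhrf1 (ENSMUSG00000001228, chr17:56303321-56323486, plus strand) binds hemimethylated DNA and recruits the maintenance methyltransferase. It was at 135, 96.1, 118, 101 and 141 CPM in the control teeth and 226, 159, 152, 190.1 and 274 CPM in the IGF1 teeth. Both groups spread widely, with embryos 1 and 6 high in both, and the lowest IGF1 tooth was above the highest control tooth. Uhrf1 was 1.67-fold higher (log2 fold change 0.74 ± 0.09 SE, edgeR adjusted p = 0.000540).

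Chaf1b (ENSMUSG00000022945, chr16:93883901-93906115, plus strand) and Chaf1a encode subunits of the histone chaperone CAF-1. Chaf1b measured 15.5, 14.6, 15, 12.6 and 15.4 CPM in the control teeth and 22.7, 21.6, 18.5, 24.3 and 31.6 CPM in the IGF1 teeth. The control teeth were nearly alike and all lay below the IGF1 teeth (fold 1.61, log2 fold change 0.68 ± 0.13 SE, edgeR adjusted p = 0.00767). Chaf1a (ENSMUSG00000002835, chr17:56040439-56072289, plus strand) was at 64.2, 53.3, 63.4, 69.8 and 64.4 CPM in the control teeth and 84.7, 71, 70.0, 89.3 and 114 CPM in the IGF1 teeth. Its lowest IGF1 tooth was just above its highest control tooth (fold 1.35, log2 fold change 0.43 ± 0.10 SE, edgeR adjusted p = 0.0160). It was not called without embryo 6 (adjusted p = 0.0560) or without the embryo block (adjusted p = 0.0654). Ubxn6, on the other strand, covers 52.5% of the exon bases of Chaf1a and was itself lower with IGF1 (log2 fold change -0.56, edgeR adjusted p = 0.00251), the opposite direction to Chaf1a.

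**Figure D4:**
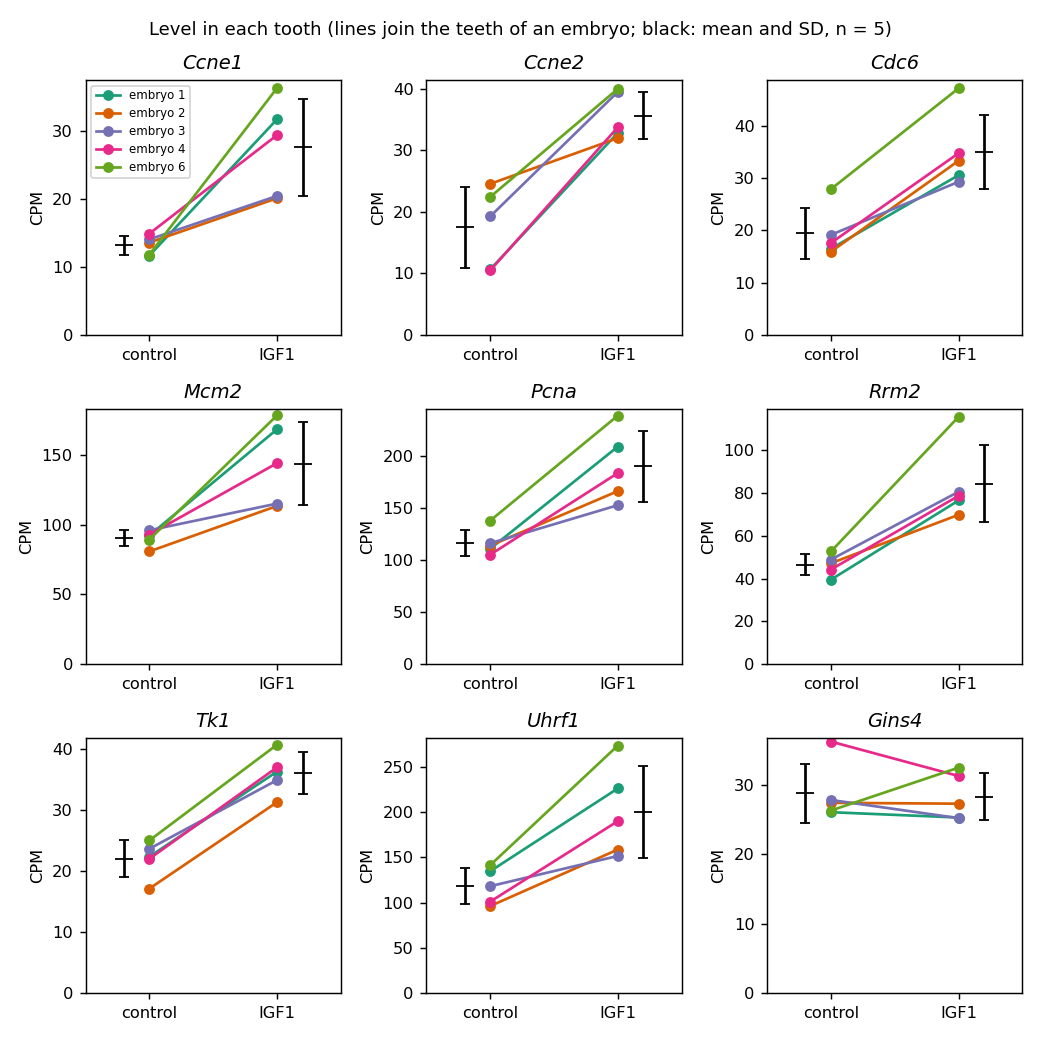
CPM in each tooth for 8 members called higher and for Gins4; lines join the teeth of an embryo, and the black bars give the mean and SD of each group (n = 5). Each line rises in the first 8 panels, from a control mean of 46.5 to an IGF1 mean of 84.3 CPM for Rrm2 and from 117 to 189.9 CPM for Pcna, while the lines of Gins4 (28.8 and 28.4 CPM) go both ways.

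The size of the change differed between embryos. The median log2 ratio over the 42 genes was 0.52, 0.29, 0.22, 0.44 and 0.53 in embryos 1, 2, 3, 4 and 6, and 38, 40, 34, 40 and 42 of the genes were higher in the IGF1 tooth. Embryo 3 held the lowest ratio for 25 of the genes and embryo 2 for 11, whereas embryo 6 held the highest ratio for 17 and embryo 1 for 12. Over all genes tested these medians stayed between -0.01 and 0.02. The summed level of the 42 genes was 2374 to 2715 CPM in the control teeth and 2903 to 4041 CPM in the IGF1 teeth, and the groups did not overlap.

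A list of 18 hypoxia response genes, such as Vegfa, Slc2a1 and Bnip3, of which all but Mxi1 were called higher by edgeR (15 of the 18 by DESeq2), also varied between embryos, but in another order. Its median log2 ratios were 0.57, 2.50, 2.37, 0.90 and 0.80, so its median was highest in embryos 2 and 3, where the median of the replication genes was lowest. Differences between single embryos have no replicate and were not tested. Whether the hypoxia response had a part in the levels of the replication genes was not tested. Of the markers of other cells, 5 of the 6 erythroid genes tested, all of them globin genes, were lower by edgeR (median log2 fold change -0.49, summed level 849.9 to 1423 CPM in the control and 604 to 1110.1 CPM in the IGF1 teeth), as were 2 of 9 endothelial markers (Cdh5 and Esam; -0.25; 413 to 471 and 332 to 438 CPM) and 1 of 8 macrophage markers tested (Csf1r; -0.11; 68 to 103 and 62.4 to 90.1 CPM), and neither of the 2 glial markers tested was called. DESeq2 called 5 of the erythroid, 1 of the endothelial and 0 of the macrophage markers lower, and at an unadjusted p under 0.05 it had 1 macrophage marker lower. None of these markers was at 0 in all libraries, and the part of these cells in the results was not tested.

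**Figure D5:**
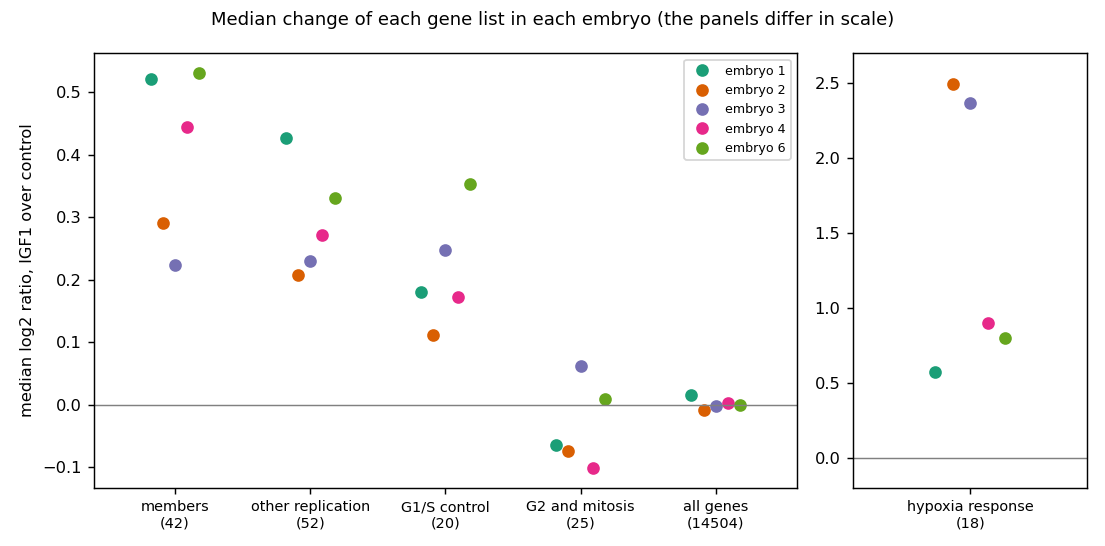
Median log2 ratio of CPM (IGF1 over control) of each gene list in each embryo, with the number of genes tested in brackets; the right panel, for hypoxia response genes, has its own scale. The members are highest in embryos 6 (0.53) and 1 (0.52) and lowest in embryo 3 (0.22), whereas the hypoxia genes are highest in embryos 2 (2.50) and 3 (2.37).

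Beyond the 42 genes, a list of 52 other replication genes was drawn up from the remaining subunits, repair factors of the fork and histone chaperones. In it 23 genes were higher with IGF1 by edgeR (44.2%), none was lower, also not at an unadjusted p under 0.05 or by DESeq2 or limma-voom, 47 had a fold change above 0 and the median log2 fold change was 0.28. The 6 genes past the threshold with the largest changes were Asf1b, Ung, Pold2, Dna2, Tipin and Nasp. Asf1b, a chaperone that hands histones to CAF-1, rose 2.05-fold (log2 fold change 1.03 ± 0.16 SE, edgeR adjusted p = 0.00245). Ung, which removes uracil from DNA, rose 1.90-fold (log2 fold change 0.92 ± 0.15 SE, edgeR adjusted p = 0.00278), and Pold2, a small subunit of polymerase delta, rose 1.87-fold (log2 fold change 0.90 ± 0.12 SE, edgeR adjusted p = 0.000756). The folds were 1.59 for the flap nuclease Dna2, 1.55 for the fork protection factor Tipin and 1.45 for the histone chaperone Nasp.

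Of 20 genes of G1/S control, 7 were higher by edgeR and none lower, with 2 lower at an unadjusted p under 0.05 and none called lower by DESeq2 or limma-voom (median log2 fold change 0.23). The largest change was that of E2f2, an activating E2F factor, at 1.79-fold (log2 fold change 0.84 ± 0.16 SE, edgeR adjusted p = 0.00659). E2f8 and E2f7, the atypical E2F factors that repress E2F targets, were also higher, at 1.48-fold (log2 fold change 0.57 ± 0.10 SE, edgeR adjusted p = 0.00574) and 1.30-fold (log2 fold change 0.38 ± 0.09 SE, edgeR adjusted p = 0.0174). So were Tfdp1, the binding partner of E2F factors (1.33-fold), Skp2, which marks the inhibitor Cdkn1b for destruction (1.31-fold), and Cdk2, the kinase of the E cyclins (1.28-fold).

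Among 25 genes of G2 and mitosis, Aurkb was higher, Kif23 was lower and 23 did not pass the test (DESeq2 and limma-voom called none of them lower, and both genes were named after their values were seen), with a median log2 fold change of -0.05. Their median log2 ratios in the 5 embryos were -0.06, -0.07, 0.06, -0.10 and 0.01, on both sides of 0. Their summed level was 3937 to 5106 CPM in the control teeth and 4056 to 4981 CPM in the IGF1 teeth. The difference between the lists was not tested, and after 6 hours of culture the groups were compared at this single time.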

How the data were processed

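RNA was sequenced from 10 teeth, 5 per group. Per the labels, the authors checked reads with FastQC 0.11.8, trimmed them with Trimmomatic 0.39 and quantified them with Salmon 0.99.0 against the mouse genome build GRCm38. They deposited estimated counts per gene, rounded: all 18381 rows hold whole numbers and sum to at least 10 counts over the libraries. The strand setting and the transcript set are not given in the sources used here. Gene symbols, positions and lengths were taken from GENCODE M21, which matched 18287 of the gene identifiers.

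The deposited expected counts were tested as they stand with edgeR 4.0.16 in R 4.3.3 (TMM scaling, filterByExpr by group, quasi-likelihood test), with embryo as a block and Benjamini-Hochberg adjustment over the 14504 genes tested. The pairs are those of the design text. As a check, the deviation of each gene from its group mean was compared between the teeth of an embryo, which gave correlations of 0.48, 0.33, -0.07, 0.29 and 0.44 (embryos 1, 2, 3, 4 and 6, across 10783 genes that are not independent), against a median of -0.08 between teeth of different embryos. Because the group means were taken out, positive values within embryos push those between embryos below 0. The negative median is therefore no separate reference for the pairing. No teeth of a group agreed within sampling noise (chi-square per degree of freedom of their counts 4.68 to 19.4). Log2 ratios per embryo used CPM with a pseudocount of 0.5, and levels between genes were compared as CPM per kb of the union of exons. The fit was tested on simulated data with known changes, where false calls made up more of the calls than the threshold on adjusted p allows and small changes were often missed, so calls just under the threshold are less certain than their adjusted p. The simulated data held few changed genes, all of set sizes, so the share of false calls there need not be that of these data.

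The members and all lists were chosen with earlier results of these data known. Values in every tooth are given for the 20 called members with the smallest p. In each role group they are also given for the member with the largest change and that with the highest level per length in the control teeth. From other replication and G1/S genes, at most 6 per list past the threshold with the largest change are named. Other lists are given by counts and median. Alternatives changed the scaling (DESeq2 1.42.0 size factors, upper quartile), the test (DESeq2, limma-voom in limma 3.58.1), the filter, the block, the depth of the pairs, the embryos used, and added a GC content and length offset. The length of the principal transcript, used for levels per length, was added after seeing the data.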

Additional observations from a re-analysis of the deposited data

Results flagged for a closer look

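In each of the 84 groups of 5 teeth, 1 group per member and treatment, the distance of the highest or lowest tooth to its nearest neighbour was divided by the range of the group. In 6 groups this ratio exceeded 0.71, the critical value at which chance alone marks about 1 group in 20, so that 4.2 such groups would be met by chance. No cause was tested for any of them.

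The control tooth of embryo 6 was the highest for Cdc6, at 27.9 CPM, while the other control teeth lay between 15.9 and 19.1 CPM (ratio 0.731). For Mcm5 the control tooth of embryo 2 was the lowest, at 67.4 CPM against 89.3 to 90.9 CPM (ratio 0.933). For Gins4 the control tooth of embryo 4 stood highest, at 36.3 CPM against 26.1 to 27.9 CPM (ratio 0.827). For Prim1 the control tooth of embryo 1, from the smallest library, was the lowest, at 36.8 CPM against 57.9 to 62.8 CPM (ratio 0.809). In the IGF1 group both remaining cases were the tooth of embryo 6: Rrm2 at 115.8 CPM against 69.9 to 80.7 CPM (ratio 0.765), and Pola1 at 127 CPM against 95 to 103.5 CPM (ratio 0.738).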

How the results depend on the processing

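No alternative called a member lower, and the median log2 fold change of the members stayed between 0.37 and 0.51. The replicate block mattered most: without it, and so without the pairing, 887 genes in place of 1666 and 16 members in place of 25 were called. Leaving out an embryo gave 986 (without embryo 4) to 1602 genes (without embryo 3), with 994 without embryo 6, and 17 (without embryo 6) to 28 members (without embryo 3); each such fit has fewer samples. The other settings gave 1364 to 2079 genes and 22 to 28 members. Of 630 single member values under the 15 alternatives, 565 kept direction and side of the threshold, 42 lost the call, 19 gained it and 4 changed sign. The 4 were Gins4 (-0.02 as reported) at 0.00775 without embryo 3, 0.0312 without embryo 4 and 0.0147 without embryos 2 and 3, and Gins1 (0.08 as reported) at -0.0119 without embryo 4. With 1 embryo left out Gins4 ran from -0.11 to 0.0312 and Gins1 from -0.0119 to 0.229. The cause was not tested. Over the 15 alternatives the log2 fold change of Mcm7 ran from 0.12 to 0.28 and of Mcm10 from 0.21 to 0.41. That of Gins2 ran from 0.18 to 0.38, of Rfc2 from 0.14 to 0.30 and of Rfc3 from 0.04 to 0.19. Prim1 ran from 0.10 to 0.23, Lig1 from 0.24 to 0.50 and Rpa2 from 0.16 to 0.41. In every alternative 16 of the 25 members were called: Cdc6, Mcm2, Mcm3, Mcm4, Cdc45, Pcna, Rrm2, Tyms, Tk1, Fen1, Rpa1, Ccne1, Ccne2, E2f1, Uhrf1 and Chaf1b.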
